A study of Procambarus virginalis with 4 samples.

Results

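The 100 most abundant transcripts of marbled crayfish hemocytes were the 100 features with the highest mean TPM over 4 RNA-seq libraries, out of 111422 features listed and 58226 with a value above 0. TPM is a length-corrected abundance scaled so that it sums to 1000000 in each library, so that a share of TPM is a relative abundance. Because these members were chosen by their mean TPM, their high levels are given as a description and carry no test. The difference between the groups was not used in that choice. A feature high only in KD or only in controls could still enter through the mean.

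Hemocyte RNA was collected from the hemolymph of *Procambarus virginalis* 28 days after injections into the circulation, which the study's methods describe as 2, on consecutive days. The controls were injected with double-stranded RNA for GFP, a sequence foreign to the crayfish. The KD group was injected with double-stranded RNA for *Dnmt1*, which encodes the maintenance DNA methyltransferase, an enzyme that copies CpG methylation after replication. Each group had 2 libraries, described as coming from 2 animals. The marbled crayfish is a single parthenogenetic clone, so that all animals share a genome, and the study used females of 1 to 3 years of age raised in the laboratory. Depth, as whole reads recovered from the TPM values, ranged from 24261401 reads in control replicate 1 to 30782726 in KD replicate 1. Below, paired values are given in the order of replicates 1 and 2.

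Hemocytes are the circulating immune cells of crayfish. They engulf and encapsulate foreign material, release granules that hold antimicrobial proteins and the enzymes of the melanization cascade, and take part in clotting of the hemolymph. Their main classes, hyaline, semigranular and granular cells, differ in granule content. In bulk RNA of this kind, a change in the number of cells of a class and a change in RNA per cell cannot be told apart. Features are listed by a scaffold and a number, and nothing in the files and text read here pairs them with gene names. The abundant transcripts could therefore not be assigned to granule proteins, ribosomal proteins or any other function. Neither the hemocyte markers nor the level of *Dnmt1* itself could be checked.

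The hemocyte transcriptome was concentrated in few features. The 100 members held 49.0% of all TPM in control replicate 1 and 52.6% in control replicate 2, compared with 54.0% in KD replicate 1 and 53.3% in KD replicate 2. The first 10 members alone held 34.9% of TPM on average and members 51 to 100 only 5.87%. A mean share of at least 1% was reached by 7 members, at least 0.5% by 14 and at least 0.1% by 82.

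When each library was ranked on its own, 25% of TPM was reached with 5 features in control replicate 1 and with 3 features in each of the other libraries. To reach 50% took 108 and 72 features in controls, compared with 59 and 67 in KD. To reach 90% took between 4750 and 4860 features, and to reach 99% between 19274 and 20043.

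**Figure D1:**
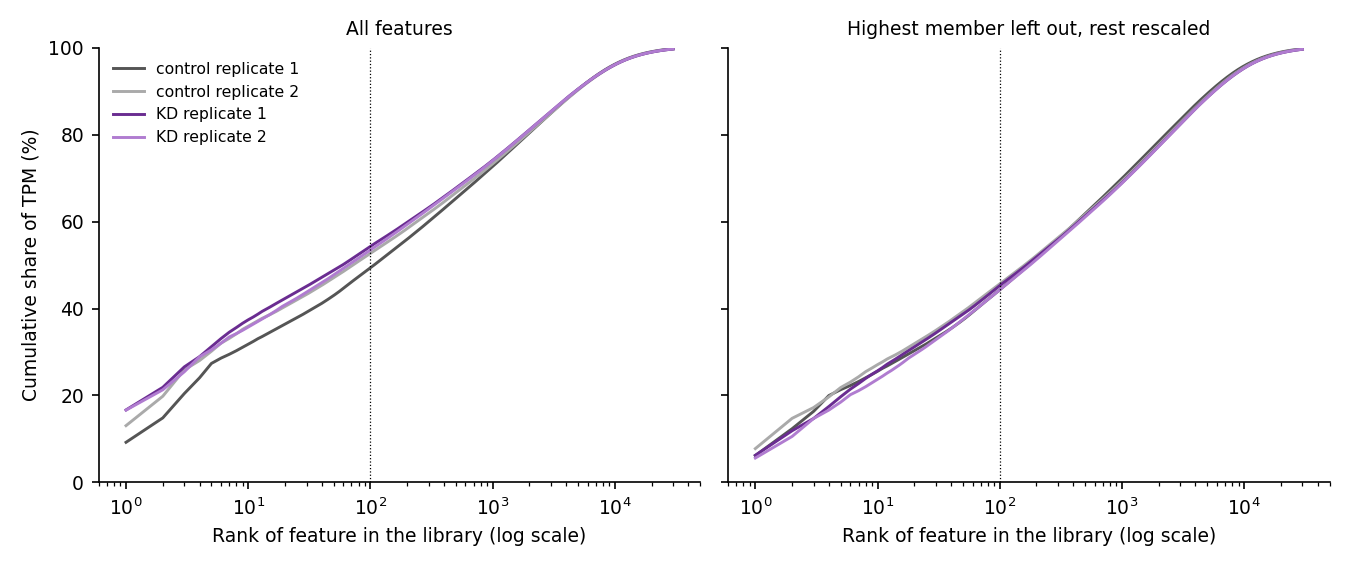
Cumulative share of TPM (%) against the rank of features in each library (log scale), with all features on the left and with the highest member left out and the rest rescaled on the right. The dotted line marks 100 features. On the left, control replicate 1 runs below the other libraries at 49.4% for its first 100 features, and on the right the 4 curves run close together.

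The highest member, WNGS01005680.405565_0_covsplit, ranked first in all 4 libraries. It reached 92320 and 130643 TPM in controls against 166760 and 166373 TPM in KD. The KD libraries were both higher than both controls and nearly equal to each other, while the controls differed by a large margin. Its share was 11.1% ± 2.71 (SD, n = 2) of TPM in controls and 16.7% ± 0.0274 in KD hemocytes, a difference of 5.51 percentage points. With a log2 fold change of 0.60 ± 0.54 (SE), it was far from the threshold in limma after Benjamini-Hochberg adjustment (adjusted p = 0.745). This log2 fold change was 0.35 without control replicate 1 and 0.0 under quantile normalization, which gives equal values to features of equal rank. Its SE depended on the variance model. The SE was 0.27 in limma without a mean-variance trend (Benjamini-Hochberg adjusted p = 0.578). In limma voom on reads the log2 fold change was 0.65 ± 0.17 (Benjamini-Hochberg adjusted p = 0.203). Over all members, this feature made up 26.6% of the summed mean TPM.

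The second member, WNGS01163464.2036754_0_covsplit, was lower in the KD libraries. It had 56154 and 67659 TPM in controls against 47010 and 41415 TPM in KD. The groups did not overlap, and the log2 fold change was -0.48 ± 0.44 (limma, Benjamini-Hochberg adjusted p = 0.747). Under quantile normalization it was -0.12.

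Members 3 and 4 varied within the groups rather than between them. Member 3, WNGS01163947.2108035_1_covsplit, had 32936 and 60553 TPM in controls and 52046 and 34458 TPM in KD. Member 4, WNGS01169498.2636754_1_covsplit, had 56011 and 21324 TPM in controls and 22998 and 46794 TPM in KD. The former was high in control replicate 2 and KD replicate 1 and the latter in control replicate 1 and KD replicate 2, so that these abundant transcripts ran opposite to each other across the libraries. Their log2 fold changes were both -0.08, with SEs of 0.51 and 0.61. Under quantile normalization they turned to 0.22 and 0.0608, and when TPM was recomputed without the highest feature to 0.0154 and 0.0168.

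The fifth member, WNGS01001312.118487_1_covsplit, had 36347 and 21617 TPM in controls against 14550 and 15297 TPM in KD. Both KD libraries lay below both controls, at a log2 fold change of -0.91 ± 0.41 (limma, Benjamini-Hochberg adjusted p = 0.567), which was -0.53 without control replicate 1. The sixth and seventh members were instead lowest in control replicate 1. WNGS01001312.118006 had 6608 and 18707 TPM in controls and 23587 and 16139 TPM in KD, with overlapping groups. WNGS01163813.2084876 had 4928 and 10576 TPM in controls and 18683 and 14195 TPM in KD, without overlap. Its log2 fold change was 1.17 ± 0.45 (limma, Benjamini-Hochberg adjusted p = 0.501), the highest among the 100 members over all 4 libraries. It was 0.62 without control replicate 1 and 1.72 without control replicate 2, where it passed the threshold (limma, Benjamini-Hochberg adjusted p = 0.0371).

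The groups overlapped for members 8 and 10 and not for member 9. WNGS01160776.1908630_0_covsplit, the eighth, had 4902 and 10282 TPM in controls and 10716 and 7721 TPM in KD. Its log2 fold change of 0.36 ± 0.44 turned to -0.18 without control replicate 1. WNGS01001312.118486_0_covsplit, the ninth, had 8262 and 10855 TPM in controls and 7901 and 6527 TPM in KD. WNGS01135237.1642610_2_covsplit, the tenth, was the steadiest of the first 10 members, with 7880 and 7235 TPM in controls and 9862 and 7616 TPM in KD.

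**Figure D2:**
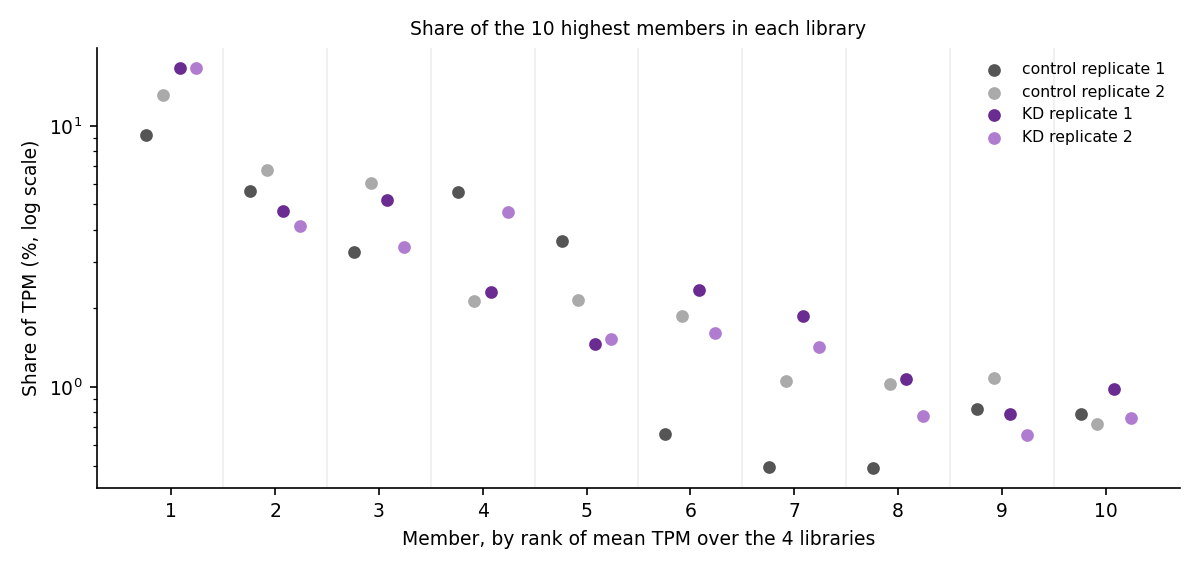
Share of TPM (%, log scale) of members 1 to 10 in each of the 4 libraries, each point being 1 library. The highest member lies at 9.23% and 13.1% in controls and 16.7% and 16.6% in KD, while members 3 and 4 are high in opposite pairs of libraries.

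High ranks of members in single libraries follow largely from their choice by the mean of the same 4 libraries, and are given as a description. Of the 100 members, 76 were among the first 100 features of all 4 libraries, 15 of exactly 3 and 9 of exactly 2. In all, 126 features reached the first 100 of at least 1 library, a count that does not rest on the choice of members. Control replicate 1 held 89 of the members among its own first 100, and the other libraries held 92 or 93. At the very top, 6 members were among the first 10 of every library, and 14 features were among the first 10 of at least 1.

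The lowest ranks of members were all found in control replicate 1. WNGS01165751.2409896_0_covsplit ranked 244 there, with 410 TPM, against 909 TPM in control replicate 2 and 1662 and 816 TPM in the KD libraries. WNGS01163947.2107960 ranked 242 there, with 412 TPM, against 1084 TPM in control replicate 2 and 1736 and 887 TPM in the KD libraries. Both peaked in KD replicate 1, and the groups overlapped for both. In the other 3 libraries no member ranked lower than 158.

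At the boundary of the choice, member 99, WNGS01001312.145634_1_covsplit, had a mean of 882 TPM and member 100, WNGS01005451.374966_0_covsplit, a mean of 871 TPM. The features just outside, WNGS01163813.2085853_16_covsplit and WNGS01162923.2006641_1_covsplit, had means of 867 and 864 TPM. Membership at this end therefore rests on a few TPM.

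The members' summed share was higher in the KD libraries, at 53.7% ± 0.463 (SD, n = 2) against 50.8% ± 2.53 in controls. The groups did not overlap, but the difference of 2.91 percentage points was close to the SD of the controls. It was 1.12 points without control replicate 1 and 4.70 points without control replicate 2. For the 100 features highest by the control mean it was 2.57 points, and for those highest by the KD mean 3.33 points. With 2 libraries against 2, a two-sided exact permutation test cannot give a p below 0.333, so that no test of this difference was made.

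A single feature carried more than the whole difference. The highest member added 5.51 points to it, while the other 99 members together summed to -2.60 points. Their share was 39.7% and 39.5% in controls and 37.3% and 36.7% in KD, also without overlap. Because TPM has a fixed total, a higher share of one feature lowers the shares of all others. Relative to the TPM left without the highest member, the other 99 held 43.8% and 45.4% in controls and 44.8% and 44.0% in KD, a range within which the groups overlapped. The difference of the highest member itself was 3.59 points without control replicate 1 and 7.42 points without control replicate 2.

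Counted feature by feature, 40 members added to the KD share, by 9.69 points in all, and 60 took from it, by -6.78 points in all. After the highest member, the largest addition came from member 7 with 0.87 points. The largest reductions came from member 2 with -1.77 points and member 5 with -1.41 points. Only 3 members moved the share by at least 1 point and 24 by at least 0.1 points. Members 11 to 100 together contributed -0.33 points.

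**Figure D3:**
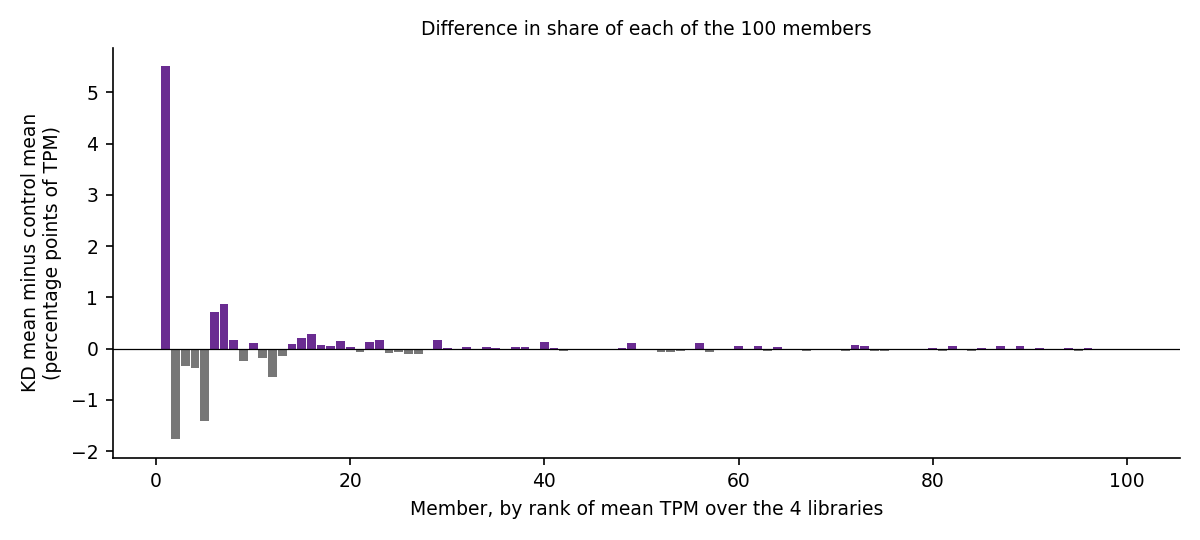
Difference in share of TPM between the KD mean and the control mean (percentage points) for each of the 100 members, ordered by mean TPM, with bars starting at 0. The highest member stands at 5.51 points and members 2 and 5 at -1.77 and -1.41 points, and bars beyond member 12 are short.

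The same dependence on the highest member was seen in a measure of concentration over all features. The effective number of features is the number of equally abundant features that would give the same Shannon entropy, and it is low when few features dominate. It was 942 and 747 in controls and 658 and 695 in KD, lower in both KD libraries, with group means of 845 ± 138 and 676 ± 25.8 (SD, n = 2). The difference of the means was -71.0 without control replicate 1 and -265 without control replicate 2. Computed from reads instead of TPM, the effective number was 794 and 747 in controls and 685 and 708 in KD, and the difference of the means was -74.1. When the highest feature was left out of every library, the effective number was 1346 and 1293 in controls and 1404 and 1494 in KD, so that the direction turned and the KD libraries were the less concentrated ones. When the first 10 were left out, the values were 3472 and 3885 in controls and 3784 and 3614 in KD, and the groups overlapped.

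At the level of single members, no KD difference passed the test. With 2 libraries per group, differences can be missed, so that this does not show an absence of change. Differential expression was tested with limma on log2(TPM + 1) for 21674 features whose mean TPM was 1 or more, at a Benjamini-Hochberg adjusted p under 0.05 over all features tested. It called 0 of the 100 members, with 0.286% of all features tested called. The lowest adjusted p of a member was 0.357. At an unadjusted p under 0.05 there were 12 members, 8 higher and 4 lower in KD, where the share over all features tested was 9.27%. Limma voom on the reads recovered from TPM also called 0 members, with 0.482% of its features called, and 31 members had an unadjusted p under 0.05 where its features had 8.4%. Its features were kept from 10 reads summed over the libraries, while the members had at least 1202 in each library. These voom shares therefore come from sets of unlike precision and cannot be read as an excess among the members. Without control replicate 2, limma called 9 members, 8 of them higher in KD, where 11.2% of all features tested were called, so that the members' share was no higher than that of all features. In that fit the control group has 1 library, which is assumed to vary like the KD libraries. Without any one of the other libraries limma called 0 members.

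The member with that lowest adjusted p, named after its values were seen, was member 40, WNGS01113158.1483676_0_covsplit. It had 1074 and 1609 TPM in controls and 2461 and 2883 TPM in KD, at a log2 fold change of 1.02 ± 0.29. Member 12, WNGS01165339.2310950_8_covsplit, was likewise singled out for the most negative log2 fold change, -1.46 ± 0.57 (limma, Benjamini-Hochberg adjusted p = 0.507). It had 12311 and 5673 TPM in controls and 1844 and 5014 TPM in KD, which was the widest range of all members, 6.68-fold from lowest to highest library. The groups of both features did not overlap. The log2 fold change of member 12 ranged from -2.18 without KD replicate 2 to -0.74 without KD replicate 1, and that of member 40 from 0.73 without control replicate 1 to 1.31 without control replicate 2.

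Both KD libraries were above both controls for 15 members, where 18.0% of all features tested showed this pattern. Both were below for 23 members, where the share over all features was 23.2%. For the remaining 62 the groups overlapped. The log2 fold change was above 0 for 41 members and below 0 for 59, with a median of -0.11 beside -0.03 over all features tested, and it ranged from -1.46 to 1.17. When TPM was recomputed without the highest feature, 47 of the other 99 members were above 0 and their median was -0.02. A log2 fold change of 1 or more in either direction was found for 7% of the members and for 4.63% of the features tested.

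**Figure D4:**
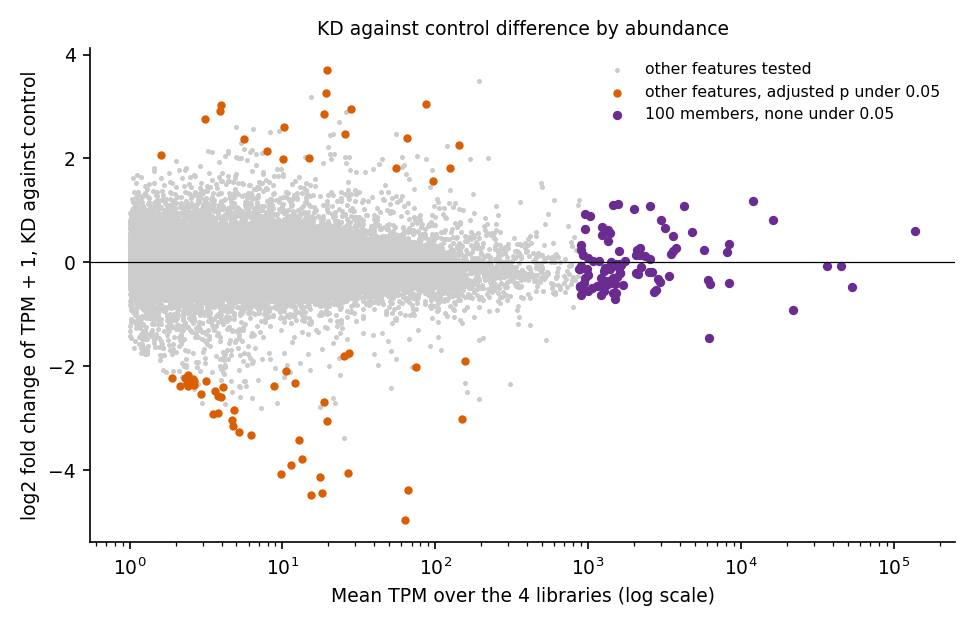
Log2 fold change of TPM + 1 between KD and control against mean TPM (log scale) for the 21674 features tested, with the 100 members in purple and other features with a limma adjusted p under 0.05 in orange. The members span -1.46 to 1.17, and 0 of them passed the threshold.

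The members differed between replicates as well. The median absolute log2 difference between the control libraries was 0.46 for the members and 0.37 for all features tested, and between the KD libraries it was 0.33 and 0.24. A difference of at least 2-fold separated the controls for 15% of the members and the KD libraries for 6%, compared with 8.65% and 2.22% of the features tested. Across all 4 libraries, 31 members differed by at least 2-fold and 12 by at least 3-fold. The steadiest member, picked for that after its values were seen, was member 66, WNGS01005641.393123_0_covsplit, with 1364 and 1389 TPM in controls and 1279 TPM in each of the KD libraries.

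Control replicate 1 and KD replicate 1 most often held the extreme values of members. Control replicate 1 held the highest value of 49 members and the lowest of 28, whereas KD replicate 1 held the highest of 19 and the lowest of 39. The same counts over all features tested are not given here. The 2 highest values of a member fell in control replicate 1 and KD replicate 2 for 37 members, compared with 21.7% of all features tested. They fell in control replicate 2 and KD replicate 1 for 18 members, compared with 20.3% of all features tested. Both controls held them for 23 members, compared with 23.2%, and both KD libraries for 15, compared with 18.0%. Across the members, which are not independent replicates, Pearson's r of log2 values was 0.80 between control replicate 1 and KD replicate 1, 0.89 between the controls and 0.95 between control replicate 2 and KD replicate 1. Over all features tested, the values for these pairs were 0.92, 0.95 and 0.97, in the same order, so that this pattern was not particular to the members. Between control replicate 1 and KD replicate 2, r was 0.89 across the members and 0.94 over all features tested. Control replicate 1 also had the fewest reads. The part of depth in these differences was not tested.

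The members lay on 46 scaffolds, 21 of which held more than 1 member and together 75 members. The spread of all features tested over scaffolds of unequal size was not compared. The scaffold WNGS01001312 held 9, among them members 5, 6 and 9, and their summed share was 6.80% and 6.26% in controls and 5.63% and 5.11% in KD. Of the 14 scaffolds with 3 or more members, 11 held log2 fold changes of both signs. Picked after their values were seen, the exceptions were WNGS01165523 and WNGS01164858, whose 5 members each lay below 0 as 59 of the 100 members did, and WNGS01004946, whose 3 members lay above 0. Chromosomal positions on these scaffolds were not used here.

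Among the members, 14 pairs on the same scaffold had numbers within 10 of each other, 3 of them being parts of 1 ID and several sharing a feature. Features that share reads or sequence could not be recognized without an annotation. The ratio of TPM within a pair varied by less than 2-fold over the libraries in 10 pairs and by 2-fold or more in 4. In 11 pairs both log2 fold changes had the same sign, a count for which other pairs of features give no baseline here. Chosen after their values were seen, WNGS01165751.2423881_1_covsplit and WNGS01165751.2423883_0_covsplit had log2 fold changes of 1.09 and 1.08 and kept the ratio of their TPM within 1.09-fold over the 4 libraries. At the other end, the ratio of WNGS01135237.1639523_20_covsplit to WNGS01135237.1639528 varied 5.70-fold. The suffix covsplit, which no source used here explains, was carried by 70% of the members and 49.7% of the features tested. Without it, the members had 97 distinct IDs.

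Because TPM divides by length, short transcripts need few reads to rank high. The members' recovered length, of which the true length may be a multiple, had a median of 1046 bases, compared with 926 for all features tested, and ranged from 113 to 11497 bases. Ranked by reads instead of TPM, 61 of the members were among the first 100 features and 39 were not. Those 39 had a median length of 518 bases, compared with 1357 for the 61. The shortest member, WNGS01158745.1831092, ranked 94 by TPM and 1730 by reads.

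By reads, the members held 44.5% and 46.8% of the control libraries and 48.0% and 47.5% of the KD libraries. The highest member took 7.20% and 10.8% of reads in controls and 14.0% and 13.8% in KD. In control replicate 1 it was passed by member 5, a feature with a recovered length of 3792 bases that took 8.47% of the reads there. The least covered member in any library had 1202 reads, for which counting error alone is 2.88%.

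**Figure D5:**
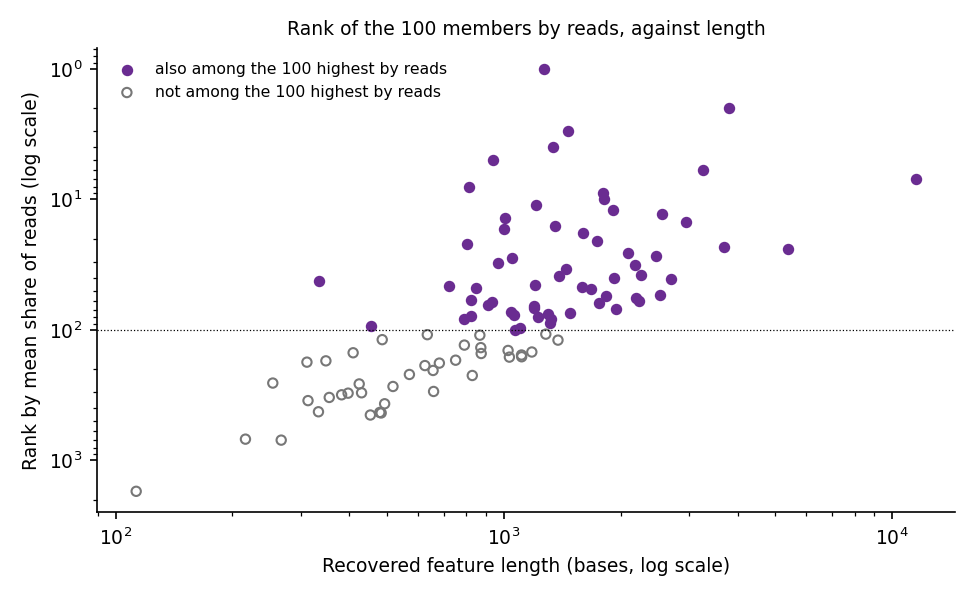
Rank of the 100 members by mean share of reads (log scale, first rank at the top) against recovered feature length (bases, log scale), with filled points for the 61 members among the first 100 by reads and open points for the other 39. The dotted line marks rank 100, and the open points lie mostly at short lengths, down to 113 bases at rank 1730.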

How the data were processed

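Single reads of 50 bp from hemocyte RNA were mapped by the authors with HISAT2 2.2.1, per the labels, and counted per gene feature, after exons of *Dnmt1* overlapping the injected RNA had been removed. The deposited values are TPM calculated by the authors without a filter. No source used here names the genome build. Columns were matched to samples by name.

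Members were ranked by mean TPM, and shares, ranks and concentration measures were computed from TPM. Whole reads and feature lengths were recovered from ratios of TPM for 100% of the 58226 features above 0 (relative tolerance 1e-09). The smallest whole solution was kept, so that the true reads and length may be a common multiple of those recovered. Differential expression was tested with limma 3.58.1 (R 4.3.3) on log2(TPM + 1) with a trend, two-sided, with Benjamini-Hochberg adjustment. P-values rest on the spread between 2 libraries per group, after limma moderated the variance of each feature toward the trend over all features tested. The SE of a single feature can therefore differ from its own spread between replicates. Other steps used pandas 2.3.3 and numpy 2.4.6 in Python 3.11.15, with plots from matplotlib 3.10.9. The statistics were tested on simulated data.

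The features named are members 1 to 10, 99 and 100 with the 2 next, the 2 adding most and the 2 adding least to the share difference, and the 2 lowest ranks in a library. Others are said to be chosen after their values were seen. The members, lists and rule were chosen with earlier results of these data known. Alternatives covered pseudocount, filter, scaling, variance model, replicate block, left-out libraries, limma voom on reads, threshold, choice of members and summing of split features. Planned lists of hemocyte markers and gene groups were not used because no ID could be named.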

Additional observations from a re-analysis of the deposited data

How the results depend on the processing

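The 0 members past the threshold held under all alternatives but one. Without control replicate 2, 9 members passed, beside 11.2% of all features tested, and the range over left-out libraries was 0 to 9. With the replicate block 0 passed (limma, lowest Benjamini-Hochberg adjusted p = 0.107), beside 2.35% of all features, and with replicate numbers crossed between the groups, an alternative added after seeing the data, 0 passed (lowest adjusted p = 0.0507), beside 0.867%. Same-numbered replicates deviated oppositely (correlation -0.34 over features tested). This describes expression only, and whether the numbers pair samples was not tested. The difference in the members' share was 0.817 points without the 10 highest features, -0.19 points without the highest feature, an alternative also added after seeing the data, and 1.12 to 4.70 points over left-out libraries. The share of the highest member differed by 3.59 to 7.42 points over left-out libraries. The difference in effective number was 20.7 without the 10 highest features, 129 without the highest feature, -16.9 as the inverse Simpson index, -74.1 by reads, and -265 to -71.0 over left-out libraries. Among log2 fold changes of named members, that of the highest was 0.0 and that of the second -0.12 under quantile normalization. WNGS01163947.2108035_1_covsplit turned to 0.22 under quantile normalization and 0.0154 without the highest feature and ranged from -0.52 to 0.36 over left-out libraries. WNGS01169498.2636754_1_covsplit turned to 0.0608 and 0.0168 under the same settings and ranged from -0.77 to 0.62. WNGS01160776.1908630_0_covsplit ranged from -0.18 to 0.89. The causes were not tested.
Counting error of a member in a library was at most 2.88%, and with 2 libraries per group the spread between replicates limits every comparison above.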
